A study of Mus musculus with 9 samples.

Results

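The data cover 10 genes of lipoprotein and macrophage lipid handling, measured by RNA sequencing in macrophages and in B cells from the bone marrow (BM) of mice with endotoxemia. They were chosen by name from the 55322 genes of the deposited expression table, and all 10 were found there under 1 symbol each: Apoe, Apoc1, Apoc2, Lpl, Lipa, Abca1, Abcg1, Nr1h3, Trem2 and Plin2. Peritoneal macrophages (PMs) were sorted as CD11b+F4/80+ cells from untreated wild-type mice, and CD11b- and CD11b+ B cells were sorted from the BM of wild-type C57BL/6 mice 48 h after an intraperitoneal injection of lipopolysaccharide (LPS, 5 mg/kg). Each group had 3 libraries, and no age is given for the mice in the sources used here. All B cells thus came from LPS-treated BM and all PMs from the naive peritoneal cavity, so cell type, tissue and treatment cannot be told apart in a comparison with PMs. Before the sort, BM cells carrying CD3, CD4, CD8, Gr-1, NK1.1 or TER119 were removed. The labels do not say whether the libraries of a group came from separate mice. The study's methods keep the SD for biological replicates and use it for these data, and the p-values measure the spread between these libraries. In RNA from sorted populations, fewer cells of a type and less RNA per cell cannot be told apart.

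The libraries held 18014658 to 35251215 reads on genes. Levels are given as FPKM, the reads on a gene scaled to its exon length and to the depth of the library, so that genes can be compared per length. A list of 12 B cell markers summed to 21672 to 23299 FPKM in the 6 B cell libraries and to 918 to 1782 FPKM in PMs. Of these 12, 2 had the higher mean in CD11b+ and 6 were lower there without overlap with CD11b- B cells, beside 6.32% of all genes tested, with a median CD11b+ to CD11b- ratio of 0.881, and limma called none between the B cell groups. The 14 resident macrophage markers summed to 27170 to 64688 FPKM in PMs, to 103 to 135 FPKM in CD11b- B cells and to 180 to 370 FPKM in CD11b+ B cells, and none of the 14 was at 0 reads in any group. A list of 12 neutrophil markers summed to 1.77 to 3.06 FPKM in CD11b- B cells and to 217 to 1587 FPKM in CD11b+ B cells.

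Macrophages take up lipoproteins and dying cells and have to store, break down or export the lipid that these carry. Lipoprotein lipase, the product of Lpl, frees fatty acids from triglyceride-rich particles outside the cell with apolipoprotein C-II (Apoc2) as its cofactor, whereas apolipoprotein C-I (Apoc1) restrains it. Lysosomal acid lipase (Lipa) splits cholesteryl esters after uptake, and perilipin 2 (Plin2) coats the droplets in which surplus lipid is stored. The oxysterol receptor LXRα (Nr1h3) pairs with a retinoid X receptor and drives the genes for the cholesterol exporters Abca1 and Abcg1 and for apolipoprotein E (Apoe), the acceptor that carries cholesterol away from the macrophage. Trem2 is a surface receptor of myeloid cells for lipids and lipoproteins, apolipoprotein E among them, and signals through the adaptor DAP12 (Tyrobp).

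Sequences upstream of the genes are shown for 4 members whose levels took different forms below: Apoe and Nr1h3, whose CD11b+ and CD11b- libraries did not overlap, Abca1, which was found at a like order of magnitude in all groups, and Trem2, which was near 0 in B cells. Each is the 250 bases before a RefSeq start on GRCm38.p6, written 5′ to 3′ along the gene, and capitals mark the motifs found. RefSeq promoters were matched by symbol for 7 of the 10 genes, and those of Apoc1, Lpl and Abcg1 were not matched.
Apoe, chr7:19699189-19699438, minus strand: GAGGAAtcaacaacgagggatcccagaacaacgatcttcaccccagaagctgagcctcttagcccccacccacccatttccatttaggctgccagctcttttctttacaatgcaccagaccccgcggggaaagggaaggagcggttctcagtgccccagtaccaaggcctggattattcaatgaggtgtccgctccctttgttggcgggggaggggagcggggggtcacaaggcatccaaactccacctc
Nr1h3, chr2:91195117-91195366, minus strand: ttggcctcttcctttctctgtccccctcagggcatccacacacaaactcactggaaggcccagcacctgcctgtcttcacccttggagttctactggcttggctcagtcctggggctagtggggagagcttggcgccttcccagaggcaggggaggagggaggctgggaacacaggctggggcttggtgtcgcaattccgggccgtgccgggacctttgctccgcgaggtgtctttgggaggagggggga
Abca1, chr4:53159896-53160145, minus strand: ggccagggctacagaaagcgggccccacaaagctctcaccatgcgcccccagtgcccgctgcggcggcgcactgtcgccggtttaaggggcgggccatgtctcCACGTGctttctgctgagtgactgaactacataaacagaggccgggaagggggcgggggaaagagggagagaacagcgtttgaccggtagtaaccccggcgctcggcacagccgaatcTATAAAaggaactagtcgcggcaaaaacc
Trem2, chr17:48346151-48346400, plus strand: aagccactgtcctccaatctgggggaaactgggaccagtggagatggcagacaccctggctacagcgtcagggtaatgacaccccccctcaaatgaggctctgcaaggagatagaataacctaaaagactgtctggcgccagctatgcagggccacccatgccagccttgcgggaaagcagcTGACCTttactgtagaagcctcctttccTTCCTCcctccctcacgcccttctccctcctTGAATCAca

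The motifs searched, on both strands and in windows that ran 50 bases past the start, were the nuclear receptor half-site AGGTCA, the LXR element as a direct repeat of that half-site with 4 bases between (which therefore also holds the half-site), the E-box CACGTG of TFEB-like factors, the core GAGGAA of PU.1 and other ETS factors, the AP-1 site TGANTCA and the TATA box TATAAA. In Apoe, GAGGAA lay from -250 to -245 relative to the start, and a second PU.1 core lay past the printed bases on the opposite strand, from 2 to 7 (TTCCTC). In Abca1, CACGTG lay from -147 to -142 and TATAAA from -29 to -24. In Trem2, the half-site lay on the opposite strand from -68 to -63 (TGACCT), the PU.1 core on the opposite strand from -40 to -35 (TTCCTC) and an AP-1 site from -9 to -3 (TGAATCA). The Nr1h3 window shown had no match, which says only that these letters are not in it, and the window of a second Nr1h3 start held a PU.1 core from 11 to 16. Of the other windows of Apoe, 1 held a PU.1 core and 1 held the TATA box on both strands. Lipa held 2 PU.1 cores and a TATA box on the opposite strand, Plin2 held the half-site and an E-box across its start (-4 to 2), and Apoc2 held the half-site at 2 places. Over all 32851 RefSeq promoters, 28.3% held the PU.1 core, 16.3% the half-site, 13.6% the TATA box, 7.81% the AP-1 site, 7.15% the E-box and 0.0152% the full LXR repeat. The repeat was in none of the 10 windows of the members.

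In both B cell groups, 7 of the 10 genes were lower than in PMs, and they were the same 7: Apoe, Apoc1, Lpl, Lipa, Nr1h3, Trem2 and Plin2 (limma, Benjamini-Hochberg adjusted p at most 0.05 over all genes tested). None was higher in either comparison. Of all genes tested, limma called 8.78% lower and 21.5% higher in the comparison of CD11b+ B cells with PMs, and 11% lower and 25.8% higher in that of CD11b- B cells with PMs. These shares depended on the scaling: with median-ratio scaling 2918 genes were higher and 2555 lower in CD11b+ B cells, in place of 4760 and 1940, and the median log2 fold change of all genes tested moved from 0.25 to 0.12. In CD11b- B cells 3401 were then higher and 3079 lower, in place of 5404 and 2306, and the median moved from 0.24 to 0.09. The members called lower stayed lower under that scaling, and Abca1 joined them in both comparisons. The comparisons share the 3 PM libraries and are therefore not independent of each other.

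**Figure D1:**
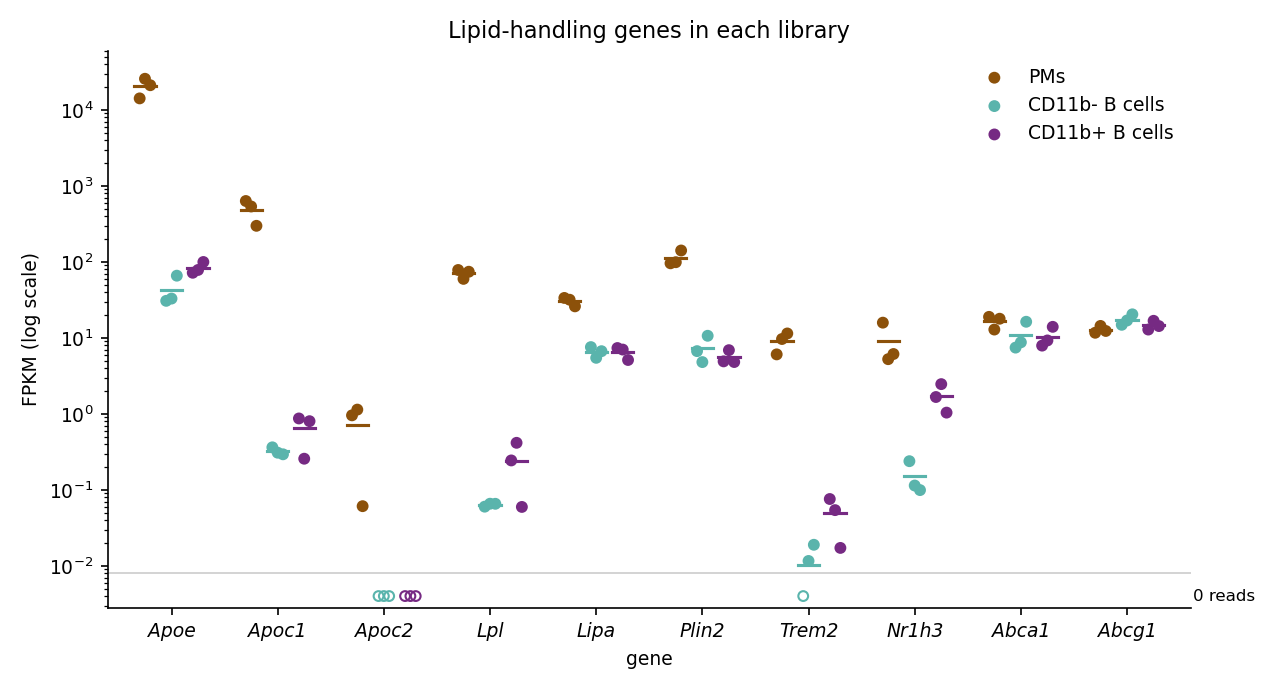
FPKM of the 10 genes in each of the 9 libraries, on a log scale, with genes on the horizontal axis; points are libraries, short lines are group means, and open points below the grey line are libraries with 0 reads. Apoe, Apoc1, Lpl, Lipa, Plin2, Trem2 and Nr1h3 lie higher in all 3 PM libraries than in any B cell library, and Abca1 and Abcg1 lie close together in all groups.

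Between the B cell groups, limma called none of the 8 members tested, and 2 of them, Apoe and Nr1h3, had an unadjusted p under 0.05, both higher in CD11b+ B cells. Apoc2 and Trem2 were below the minimum mean level of 0.05 FPKM over these 6 libraries and were not tested. Among all genes tested limma called 0.0689% higher and 0% lower, and 4.65% had an unadjusted p under 0.05 on the higher side and 3.04% on the lower side. On whole reads recovered from the FPKM, edgeR with its expression filter called none of the members, edgeR without a filter called Apoe and Nr1h3, and DESeq2 called Nr1h3. The same settings called 0.269% (edgeR with its filter), 1.11% (edgeR without a filter) and 1.45% (DESeq2) of all genes higher. Apoe and Nr1h3 were also the only members whose CD11b+ and CD11b- libraries did not overlap, and 8.63% of all genes tested were separated in that direction and 6.32% in the other.

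Apoe (ENSMUSG00000002985, chr7:19696109-19699188 on GRCm38, minus strand) had the highest level of the 10 genes in every group. It measured 14169, 25670 and 21113 FPKM in PMs, 30.7, 32.9 and 65.8 FPKM in CD11b- B cells and 71.9, 78.3 and 99.6 FPKM in CD11b+ B cells. Every PM library was far above every B cell library, and every CD11b+ library was above every CD11b- library, although CD11b- replicate 3 came close to the lowest CD11b+ library. In PMs, Apoe alone took 3.03%, 5.49% and 4.51% of all reads on genes (95% Wilson intervals 3.02% to 3.04%, 5.48% to 5.50% and 4.50% to 4.52%, which cover counting error only, since amplified reads are not molecules).

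Relative to the mean in PMs, Apoe stood at 0.212% in CD11b- B cells and at 0.410% in CD11b+ B cells. Its mean was 20317 ± 5792 FPKM in PMs, 43.1 ± 19.7 FPKM in CD11b- B cells and 83.2 ± 14.5 FPKM in CD11b+ B cells (SD, n = 3 each). The log2 fold change of FPKM + 1 from PMs was -8.89 ± 0.36 (SE) in CD11b- B cells (limma adjusted p = 2.24e-06) and -7.89 ± 0.33 in CD11b+ B cells (limma adjusted p = 2.41e-06). Between the B cell groups the mean was 1.93 times as high in CD11b+ as in CD11b- cells, with a log2 fold change of 1.01 ± 0.29 (SE; unadjusted 95% interval 0.35 to 1.66, limma adjusted p = 0.459). Without CD11b- replicate 3 the ratio was 2.62 and the adjusted p 0.120, and over the other single libraries left out the ratio ran from 1.69 to 2.06. An exact permutation test of the means gave p = 0.1, the smallest that 3 against 3 libraries allow. EdgeR without a filter gave an adjusted p of 0.000801, edgeR with its filter 0.386 and DESeq2 0.0935.

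Apoc1 (ENSMUSG00000040564, chr7:19689481-19692660, minus strand) was next to Apoe in abundance in PMs. It measured 632, 536 and 298 FPKM in PMs, 0.362, 0.308 and 0.294 FPKM in CD11b- B cells and 0.869, 0.257 and 0.801 FPKM in CD11b+ B cells. The B cell values rested on 7 to 9 reads a library in CD11b- and on 5 to 21 reads in CD11b+ B cells, and the B cell groups overlapped because CD11b+ replicate 2 was the lowest of all 6 libraries. The mean of PMs was 1520 times that of CD11b- and 761 times that of CD11b+ B cells. Against PMs the log2 fold change was -8.46 ± 0.28 (SE) in CD11b- B cells (limma adjusted p = 9.00e-07) and -8.17 ± 0.31 in CD11b+ B cells (limma adjusted p = 1.45e-06). The mean of CD11b+ was 2.0 times that of CD11b- B cells, and from 1.65 to 2.60 times with any 1 library left out. On the scale of FPKM + 1, which understates the change at these levels, the log2 fold change between them was 0.29 ± 0.20 (interval -0.18 to 0.76, limma adjusted p = 0.727).

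Apoc2 (ENSMUSG00000002992, chr7:19671579-19677941, minus strand) was rare throughout. It had 14, 27 and 1 reads in PMs, or 0.956, 1.14 and 0.0610 FPKM, and 0 reads in all 6 B cell libraries. Against a floor of 3 reads over the 3 libraries of a group, PMs were at least 19.5-fold higher than CD11b- and at least 17.7-fold higher than CD11b+ B cells, and with any 1 library left out these bounds ran from 10.8-fold to 28.5-fold. limma did not call it (adjusted p = 0.0759 for CD11b- and 0.0837 for CD11b+ B cells), whereas without PM replicate 3, which had the single read, it did (0.00555 and 0.00922). With all libraries kept, limma called it with the 9 libraries in one fit (0.0316 and 0.0335) and, for CD11b- B cells, with a pseudocount of 0.1 (0.0458, against 0.0520 for CD11b+). DESeq2 and edgeR without a filter called it lower in both B cell groups. Of the 813 exon bases of Apoc2 in the table, 79.5% also belong to the overlapping gene model Gm44805 on the same strand, which was listed at 0 in every library. How the counting treated shared bases is not given, so reads there may have been left out. The level of Apoc2 is therefore uncertain, as are its 0 reads in B cells and the bounds that rest on them.

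Lpl (ENSMUSG00000015568, chr8:68880491-68907448, plus strand) measured 78.2, 59.7 and 74.2 FPKM in PMs, 0.0601, 0.0656 and 0.0655 FPKM in CD11b- B cells and 0.244, 0.416 and 0.0596 FPKM in CD11b+ B cells. PMs were 1109 times as high as CD11b- and 295 times as high as CD11b+ B cells in the mean, and the latter ratio was 466 without CD11b+ replicate 2. The CD11b+ group was split: replicates 1 and 2 held 75 and 114 reads, and replicate 3 held 22, as many as the CD11b- libraries with their 21 to 24. Against PMs the log2 fold change was -6.07 ± 0.20 (SE) for CD11b- (limma adjusted p = 8.57e-07) and -5.85 ± 0.23 for CD11b+ B cells (limma adjusted p = 1.60e-06). On this scale of FPKM + 1, which understates the changes of a gene this low, the difference between the B cell groups was 0.21 ± 0.14 (interval -0.11 to 0.53, limma adjusted p = 0.727). Over the other settings that keep all libraries it ran from 0.11 to 1.89, and none of them called it. The ratio of the group means moved from 3.76 to 2.38 without CD11b+ replicate 2 and to 5.17 without CD11b+ replicate 3.

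Lipa (ENSMUSG00000024781, chr19:34492318-34527474, minus strand) was lower in B cells than in PMs by a smaller factor. It measured 33.5, 31.7 and 26.0 FPKM in PMs, 7.56, 5.46 and 6.68 FPKM in CD11b- B cells and 7.35, 7.01 and 5.11 FPKM in CD11b+ B cells. The B cell groups covered the same range and stood at 21.6% and 21.3% of PMs. The log2 fold change from PMs was -2.06 ± 0.19 (SE) for CD11b- (limma adjusted p = 0.000173) and -2.07 ± 0.21 for CD11b+ B cells (limma adjusted p = 0.000255). The difference of CD11b+ from CD11b- B cells was -0.02 ± 0.21 (interval -0.49 to 0.46, limma adjusted p = 0.982), which leaves room for differences of that size in either direction.

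Nr1h3 (ENSMUSG00000002108, chr2:91184061-91202834, minus strand) separated the B cell groups by the widest ratio. It measured 0.238, 0.114 and 0.0992 FPKM in CD11b- B cells, from 20, 10 and 8 reads, 1.67, 2.46 and 1.04 FPKM in CD11b+ B cells, from 123, 162 and 92 reads, and 15.8, 5.24 and 6.13 FPKM in PMs. The lowest CD11b+ library was above the highest CD11b- library, and the highest CD11b+ library was below the lowest PM library. As a share of the PM mean, CD11b- B cells stood at 1.66% and CD11b+ B cells at 19.0%. PM replicate 1 raised the PM mean, and without it these shares were 2.65% and 30.3%.

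The mean of Nr1h3 was 11.4 times as high in CD11b+ as in CD11b- B cells, 1.72 ± 0.713 against 0.150 ± 0.0764 FPKM (SD, n = 3 each), and from 8.98 to 16.1 times with any 1 library left out. On the scale of FPKM + 1, which understates the change of a gene this low, the log2 fold change was 1.21 ± 0.25 (SE; interval 0.64 to 1.78, limma adjusted p = 0.229). The exact permutation test gave p = 0.1, the smallest possible. On whole reads the log2 fold change was 3.49 with DESeq2 (adjusted p = 4.40e-06), 3.47 with edgeR without a filter (adjusted p = 0.00236) and 3.49 with edgeR and its filter (adjusted p = 0.0816). Against PMs the log2 fold change of FPKM + 1 was -2.98 ± 0.41 for CD11b- (limma adjusted p = 0.00117) and -1.77 ± 0.43 for CD11b+ B cells (limma adjusted p = 0.0160). The latter call was lost without CD11b+ replicate 1 (adjusted p = 0.0607) or without CD11b+ replicate 3 (adjusted p = 0.0629). Of its exon bases 1.35% overlap the low lncRNA Gm13783, which stayed under 1 FPKM.

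The cholesterol exporters varied less between the groups. Abca1 (ENSMUSG00000015243, chr4:53030787-53159895, minus strand) measured 18.9, 12.9 and 17.9 FPKM in PMs, 7.44, 8.74 and 16.3 FPKM in CD11b- B cells and 7.90, 9.24 and 14.0 FPKM in CD11b+ B cells. Replicate 3 was the highest library in both B cell groups and reached the range of PMs, and all groups overlapped. The difference from PMs was -0.62 ± 0.30 on the log2 scale (SE, limma adjusted p = 0.150) for CD11b- and -0.64 ± 0.26 (limma adjusted p = 0.105) for CD11b+ B cells. It was called lower in both under median-ratio scaling (log2 fold changes -1.11 and -1.10), under quantile normalization, with edgeR and with DESeq2, and also once replicate 3 of the B cell group was left out (-0.93, adjusted p = 0.0321, and -0.86, adjusted p = 0.0448). CD11b+ differed from CD11b- B cells by -0.02 ± 0.31 (interval -0.73 to 0.69, limma adjusted p = 0.987).

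Abcg1 (ENSMUSG00000024030, chr17:31057675-31117988, plus strand) was the only one of the genes with a mean in B cells above that of PMs. It measured 11.7, 14.4 and 12.3 FPKM in PMs, 14.9, 16.9 and 20.4 FPKM in CD11b- B cells and 12.9, 16.8 and 14.3 FPKM in CD11b+ B cells. The CD11b- libraries lay above all PM libraries and the CD11b+ libraries overlapped both other groups. Neither difference from PMs was called, 0.41 ± 0.19 (SE; interval -0.03 to 0.85, limma adjusted p = 0.129) and 0.18 ± 0.20 (interval -0.28 to 0.64, limma adjusted p = 0.491), and the sign of both turned under median-ratio scaling, quantile normalization, edgeR and DESeq2. Between the B cell groups the log2 fold change was -0.23 ± 0.17 (interval -0.63 to 0.16, limma adjusted p = 0.727).

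**Figure D2:**
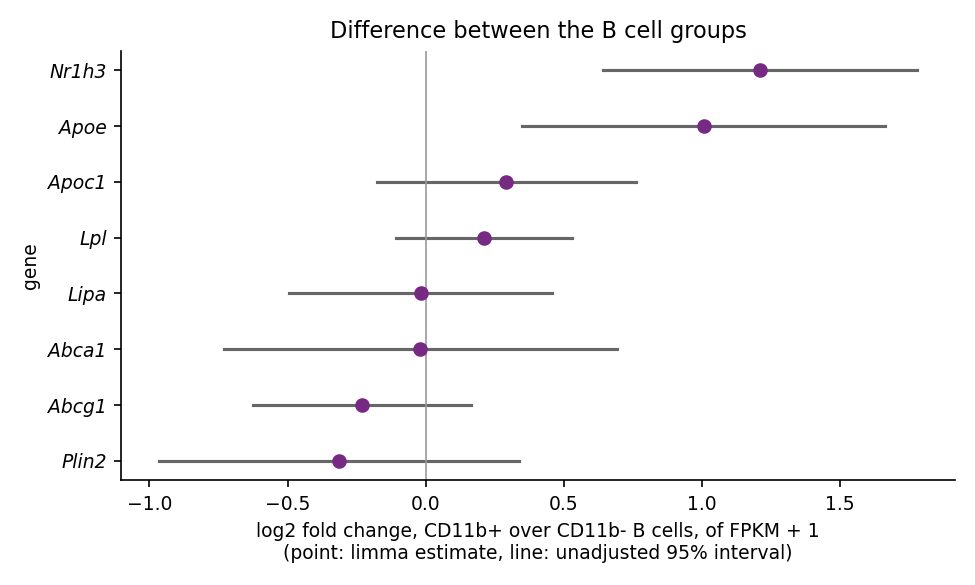
log2 fold change of FPKM + 1 between CD11b+ and CD11b- B cells for the 8 genes tested, with genes on the vertical axis; points are limma estimates and lines their unadjusted 95% intervals from 3 libraries a group. The intervals of Nr1h3 (0.64 to 1.78) and Apoe (0.35 to 1.66) lie above 0 before adjustment, and the other 6 cross 0. The scale understates the changes of Apoc1, Lpl and Nr1h3, which were low in B cells.

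Trem2 (ENSMUSG00000023992, chr17:48346401-48354147, plus strand) measured 6.06, 9.66 and 11.4 FPKM in PMs. It had 0, 2 and 3 reads in CD11b- B cells and 11, 7 and 3 reads in CD11b+ B cells, or at most 0.0189 and 0.0757 FPKM. The highest CD11b- library exceeded the lowest CD11b+ library, so the groups overlapped, and both lay far below PMs, whose mean was 889.5 times that of CD11b- and 185 times that of CD11b+ B cells. With so few reads the first ratio was 593 without CD11b- replicate 1 and 1561 without CD11b- replicate 3, and the second ran from 139 to 254 with any 1 library left out. On the scale of FPKM + 1, which understates the change of a gene this low, the log2 fold change from PMs was -3.27 ± 0.30 (SE) for CD11b- (limma adjusted p = 0.000158) and -3.22 ± 0.32 for CD11b+ B cells (limma adjusted p = 0.000213). A difference between the B cell groups was not detectable at these counts (edgeR without a filter, adjusted p = 0.644).

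Plin2 (ENSMUSG00000028494, chr4:86648386-86670060, minus strand) measured 95.8, 99.0 and 141 FPKM in PMs, 6.69, 4.80 and 10.7 FPKM in CD11b- B cells and 4.91, 6.89 and 4.81 FPKM in CD11b+ B cells. It stood at 6.59% and 4.94% of PMs. The log2 fold change from PMs was -3.79 ± 0.29 (SE) for CD11b- (limma adjusted p = 5.39e-05) and -4.10 ± 0.23 for CD11b+ B cells (limma adjusted p = 8.69e-06). CD11b- replicate 3 was again the highest B cell library, the B cell groups overlapped, and their difference was -0.31 ± 0.28 (interval -0.96 to 0.34, limma adjusted p = 0.727).

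Within a group, the order of the genes differed between macrophages and B cells. In PMs the order by mean level was Apoe, Apoc1, Plin2, Lpl, Lipa, Abca1, Abcg1, Nr1h3, Trem2 and Apoc2, in which Abca1, Abcg1, Nr1h3 and Trem2 formed a run where each overlapped with the next, and no other neighbours overlapped. In both B cell groups Apoe was followed by Abcg1 and Abca1, which overlapped with each other, and then by Plin2 and Lipa, which also did, with Plin2 ahead in CD11b- and Lipa ahead in CD11b+ B cells. Abca1 overlapped with Plin2, the gene after it, in the CD11b- group, and did not overlap with Lipa, the gene after it, in the CD11b+ group. In CD11b- B cells Apoc1 (0.321 FPKM) came before Nr1h3 (0.150 FPKM), and in CD11b+ B cells Nr1h3 (1.72 FPKM) came before Apoc1 (0.642 FPKM), each without overlap.

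The share of the PM level in B cells was set beside the same share of the resident macrophage markers. For those 14 markers it ran from 0.0662% to 11.03% with a median of 0.0957% in CD11b- B cells, and from 0.181% to 9.72% with a median of 0.525% in CD11b+ B cells. Apoc1 (0.0658% and 0.131%) was below the lowest of these markers in both groups. In CD11b- B cells the margin was narrow (0.0658% against 0.0662%) and rested on 24 reads of Apoc1, so that rank is uncertain. Lpl (0.0902% and 0.339%), Trem2 (0.112% and 0.542%) and Apoe (0.212% and 0.410%) were within the range of the markers. Plin2 (6.59% and 4.94%) was within the range too, but above all of the markers except Icam2, which B cells also express. Lipa, Abca1 and Abcg1 stood above the whole range in both groups, and Nr1h3 did so in CD11b+ B cells. Of the macrophage markers, 13 of 14 had the higher mean in the CD11b+ group, 11 of 14 without overlap (8.63% of all genes tested). Their median ratio was 4.35 (range 0.881 to 15.4) beside 1.93 for Apoe and 11.4 for Nr1h3. All 10 monocyte markers had a higher mean in CD11b+ B cells, 7 without overlap, with summed levels of 25.5 to 33.8 FPKM in CD11b- and 55.1 to 80.2 FPKM in CD11b+ B cells. The 12 neutrophil markers summed to 658, 1587 and 217 FPKM in the CD11b+ libraries and to at most 3.06 FPKM in CD11b- libraries, so that no CD11b+ library was free of them. Sums of the other lists went both ways. The 6 plasma cell markers summed to 85.2 to 150 FPKM in CD11b- and 203 to 590 FPKM in CD11b+ B cells. Of these, 5 of 6 were higher in the mean and 2 without overlap. All 7 erythroid and platelet markers were higher in the mean and 1 without overlap, with sums of 5.55 to 23.7 and 32.6 to 45.0 FPKM. The dendritic cell markers summed to 40.1 to 46.0 and 54.3 to 80.7 FPKM, with 5 of 8 higher in the mean. Sums of the T and NK cell markers overlapped, with 7 of 8 higher in the mean. The stroma and endothelium markers summed to 44.1 to 52.2 and 33.6 to 39.9 FPKM, although 6 of 7 were higher in the mean. Limma called none of the markers in these lists between the B cell groups. From 21128 to 22882 genes had a read in CD11b- and from 23767 to 27321 in CD11b+ libraries. The part that such transcripts have in the levels of Apoe and Nr1h3 was not tested.

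**Figure D3:**
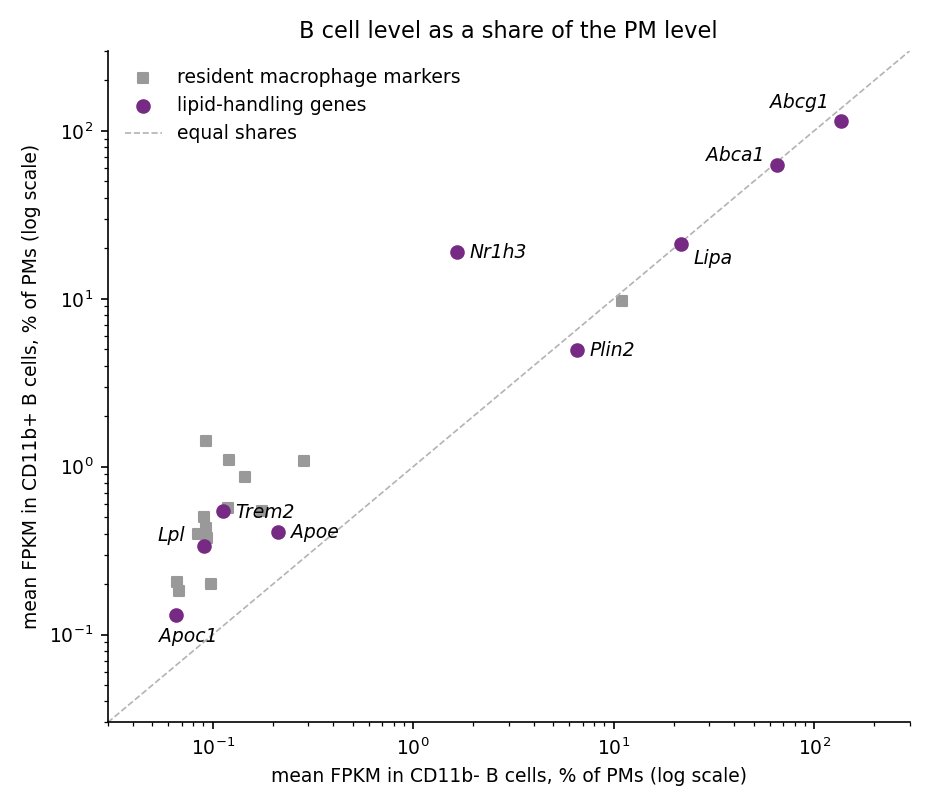
Mean FPKM in CD11b- B cells (horizontal axis) and in CD11b+ B cells (vertical axis), each as a percent of the PM mean and on a log scale, for 9 of the genes (Apoc2, with 0 reads in B cells, is left out) and for the 14 resident macrophage markers; the dashed line marks equal shares. Nr1h3 lies above the line at 1.66% and 19.0% (2.65% and 30.3% without PM replicate 1), Lipa, Abca1 and Abcg1 lie near the line, and Apoe, Apoc1, Lpl and Trem2 lie among or near the markers.

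Apoe, Apoc1 and Apoc2 sit in 1 cluster on chromosome 7 with Apoc4, and 15 genes of the table have a body within 100 kb of Apoe, 12 of them protein-coding. Apoe and Apoc1 were the only ones with a mean of at least 100 FPKM in PMs. Apoc4, between Apoc2 and Apoc1, measured 11.4 ± 3.99 FPKM in PMs (SD, n = 3) and 0.0121 and 0.0119 FPKM in CD11b- and CD11b+ B cells, from 3 reads in each group. The adhesion molecule gene Bcam, 60.0 kb away, likewise was higher in PMs, with 27.0 ± 10.3 FPKM against 0.0778 and 0.0967 FPKM.

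Of the genes around the cluster, Tomm40, Clptm1, Relb and Clasrp ran the other way, and Nectin2 did not. Tomm40, a subunit of the mitochondrial import pore whose lowest position lies 5.2 kb above that of Apoe, measured 9.15 ± 1.31 FPKM in PMs, 20.5 ± 0.565 FPKM in CD11b- and 22.1 ± 2.82 FPKM in CD11b+ B cells. Relb, an NF-κB subunit, measured 3.76 FPKM in PMs, 44.5 FPKM in CD11b- and 34.7 FPKM in CD11b+ B cells. Of the 12 protein-coding genes, 6 (Apoe, Apoc1, Apoc2, Apoc4, Nectin2 and Bcam) had a higher mean in PMs than in both B cell groups. These means are given as a description.

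**Figure D4:**
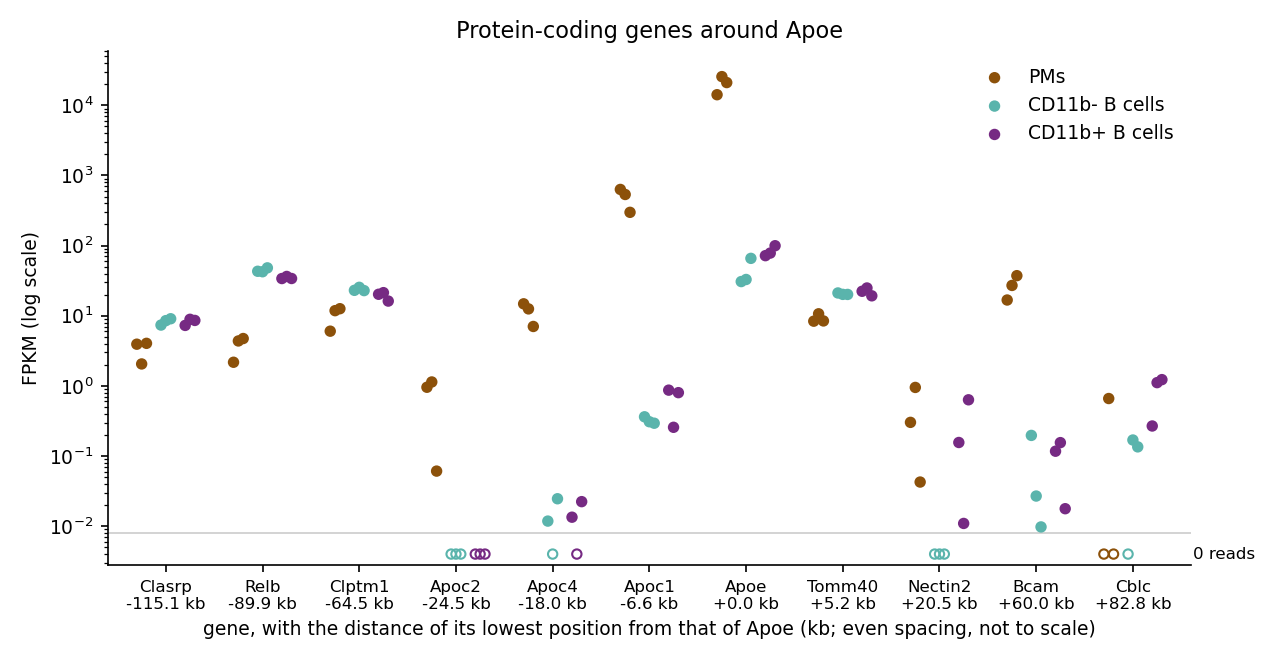
FPKM in each library, on a log scale, of the 11 protein-coding genes with reads within 100 kb of Apoe, in their order along the chromosome with the distance in kb from Apoe; points are libraries and open points are libraries with 0 reads. Apoc2, Apoc4, Apoc1, Apoe and Bcam lie higher in PMs, and Clasrp, Relb, Clptm1 and Tomm40 lie higher in B cells.

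The other lipid genes were read from 8 lists with 127 genes. Against PMs, 29 of 111 tested were lower and 20 higher in CD11b+ B cells, and 33 of 109 were lower and 25 higher in CD11b- B cells (limma, adjusted p at most 0.05). Of all genes tested, 8.78% were lower and 21.5% higher in CD11b+ B cells, and 11% were lower and 25.8% higher in CD11b- B cells. The counts of each list below are to be read beside these shares. With median-ratio scaling the split was 32 lower and 12 higher in CD11b+ and 37 lower and 12 higher in CD11b- B cells, beside 11.6% lower and 13.2% higher and 14.7% lower and 16.2% higher of all genes. Limma called 0 of 106 between the B cell groups, with 8 higher and 5 lower at an unadjusted p under 0.05, and edgeR with its filter called 0 of 97. EdgeR without a filter called 5 and DESeq2 8, all higher in CD11b+ B cells.

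Lipoprotein uptake receptors were mostly lower in B cells, 6 of 11 in CD11b+ and 7 of 11 in CD11b- B cells, with 1 and 2 higher. Msr1, the class A scavenger receptor, measured 133 ± 8.15 FPKM in PMs (SD, n = 3) and 0.121 and 0.362 FPKM in CD11b- and CD11b+ B cells, and Cd36, a fatty acid and oxidized lipoprotein receptor, 99.3 ± 25.6 FPKM in PMs and 23.9 and 31.8 FPKM in B cells. Lrp10 was the member of this list higher in both B cell groups (67.6 and 51.7 FPKM against 28.4 FPKM in PMs), and its call in CD11b+ B cells was lost under median-ratio scaling.

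Lysosomal sterol genes were lower in 5 of 12 in CD11b+ and 6 of 12 in CD11b- B cells, with 1 and 2 higher. Npc2, which hands cholesterol to the lysosomal membrane, measured 119 ± 39.2 FPKM in PMs and 22.7 and 20.4 FPKM in CD11b- and CD11b+ B cells. Tfeb, a driver of lysosomal genes, was higher in B cells, 25.4 and 18.9 FPKM against 5.51 ± 0.463 FPKM in PMs.

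Among the 18 genes of sterol efflux and the LXR pathway tested, 6 were lower and 4 higher in CD11b+ B cells, and 7 lower and 5 higher in CD11b- B cells. The secreted scavenger-like protein gene Cd5l measured 523 ± 53.2 FPKM in PMs and 0.966 and 2.75 FPKM in CD11b- and CD11b+ B cells, and the phosphodiesterase gene Smpdl3a 385 ± 154 FPKM in PMs and 17.6 and 17.5 FPKM in B cells. Scd1, the stearoyl-CoA desaturase, ran in the opposite direction, with 1.23 ± 0.290 FPKM in PMs, 231 ± 20.2 FPKM in CD11b- and 182 ± 8.92 FPKM in CD11b+ B cells. Mylip, which marks the LDL receptor for degradation, was called higher in both B cell groups (38.6 and 34.8 FPKM against 17.3 FPKM), and both calls were lost under median-ratio scaling. Cd5l was also called higher in the CD11b+ than the CD11b- libraries by DESeq2 (adjusted p = 0.0479) and not by limma (adjusted p = 0.408).

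Of the TREM2 signalling and TREM family genes, 4 were lower in each B cell group than in PMs, and 3 of 13 were higher in CD11b+ and 4 of 12 in CD11b- B cells. Tyrobp measured 3202 ± 706 FPKM in PMs, 50.3 ± 10.5 FPKM in CD11b- and 81.5 ± 10.95 FPKM in CD11b+ B cells, and its partner adaptor Hcst 102 FPKM in PMs and 13.7 and 26.3 FPKM in B cells. The downstream kinase Syk (32.6 FPKM in PMs, 134 and 111 FPKM in B cells) and Plcg2 (27.0 FPKM in PMs, 98.5 and 78.0 FPKM in B cells), which also serve the B cell receptor, were higher in both B cell groups. The TREM family genes Trem3 and Treml4, named after their values were seen, had 6 and 0 reads in all CD11b- libraries together and 274 and 162 reads in all CD11b+ libraries. Both were called by edgeR without a filter and by DESeq2 but not by limma (adjusted p = 0.123 and 0.327).

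Among lipases and their partners 2 of 11 were lower and 1 higher in CD11b+ B cells, and 3 lower and 1 higher in CD11b- B cells. The lysosomal phospholipase gene Pla2g15 measured 48.5 ± 17.1 FPKM in PMs and 7.90 and 6.03 FPKM in CD11b- and CD11b+ B cells, and hepatic lipase, Lipc, measured 0.0900 FPKM in PMs and 7.84 ± 3.62 and 10.3 ± 2.43 FPKM in B cells. The adipose triglyceride lipase gene Pnpla2 was called in neither (12.2 FPKM in PMs, 25.7 and 16.4 FPKM in B cells).

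Among the droplet and fatty acid carrier genes, 3 of 14 were lower in each B cell group, and 0 and 1 higher in CD11b+ and CD11b- B cells. The fatty acid binding protein genes Fabp4 (98.3 ± 22.6 FPKM in PMs, 0.213 and 0.287 FPKM in CD11b- and CD11b+ B cells) and Fabp5 (43.3 ± 10.8 FPKM in PMs, 3.13 and 4.68 FPKM in B cells) were lower in B cells. Hilpda, a lipase inhibitor on droplets (20.4 FPKM in PMs, 14.7 and 18.7 FPKM in B cells), and the triglyceride synthase gene Dgat1 (12.4 FPKM in PMs, 14.5 and 12.0 FPKM in B cells) were called in neither.

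Among the other apolipoprotein genes, 2 were lower in each B cell group, and 1 of 8 tested was higher in CD11b+ B cells. Apobr, a receptor for apolipoprotein B particles, measured 29.8 ± 1.59 FPKM in PMs and 0.0374 and 0.349 FPKM in CD11b- and CD11b+ B cells. The editing enzyme gene Apobec1 (51.4 FPKM in PMs, 42.9 and 36.3 FPKM in B cells) and Apof (0.00591 FPKM in PMs, 0.126 and 1.30 FPKM in B cells) were not called against PMs by limma.

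Cholesterol synthesis was the list with the most genes called higher in B cells, 9 of 24 in CD11b+ and 10 of 24 in CD11b- B cells, with 1 lower in each, beside 21.5% and 25.8% of all genes tested. With median-ratio scaling 4 and 3 were higher, beside 13.2% and 16.2% of all genes. Its regulator Srebf2 measured 11.9 ± 0.573 FPKM in PMs, 34.2 ± 1.65 FPKM in CD11b- and 34.2 ± 1.18 FPKM in CD11b+ B cells. Mvd, an enzyme of the mevalonate steps, was the gene called lower, with 21.1 FPKM in PMs and 14.1 and 12.1 FPKM in B cells. The sterol isomerase gene Ebp was called in neither (31.8 FPKM in PMs, 25.9 and 26.1 FPKM in B cells).

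The following genes behind the counts of 5 or fewer were named after their values were seen. Called higher than in PMs in both B cell groups were Rxrb, Scd2 and Treml2, and in addition Apom in CD11b+ B cells and Lpcat3, Smpd1, Adam17 and Acsl1 in CD11b- B cells. Called lower in both were Apoc4, Nceh1, Scarb2, Mitf, Npc1, Tfe3, Pilra, Pilrb1 and G0s2, and Abhd5 in CD11b- B cells. With median-ratio scaling, the cholesterol synthesis genes still called higher were Pmvk and Srebf2 in both groups, Idi1 and Fdft1 in CD11b+ and Hsd17b7 in CD11b- B cells. In the comparison of the B cell groups, the genes lower in CD11b+ cells at an unadjusted p under 0.05 included Smpd1, Adam10, Lrp10 and Scd1, and those called higher by edgeR without a filter were Rxra, Pilra, Apof, Trem3 and Treml4. Limma called none of these genes between the B cell groups.

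**Figure D5:**
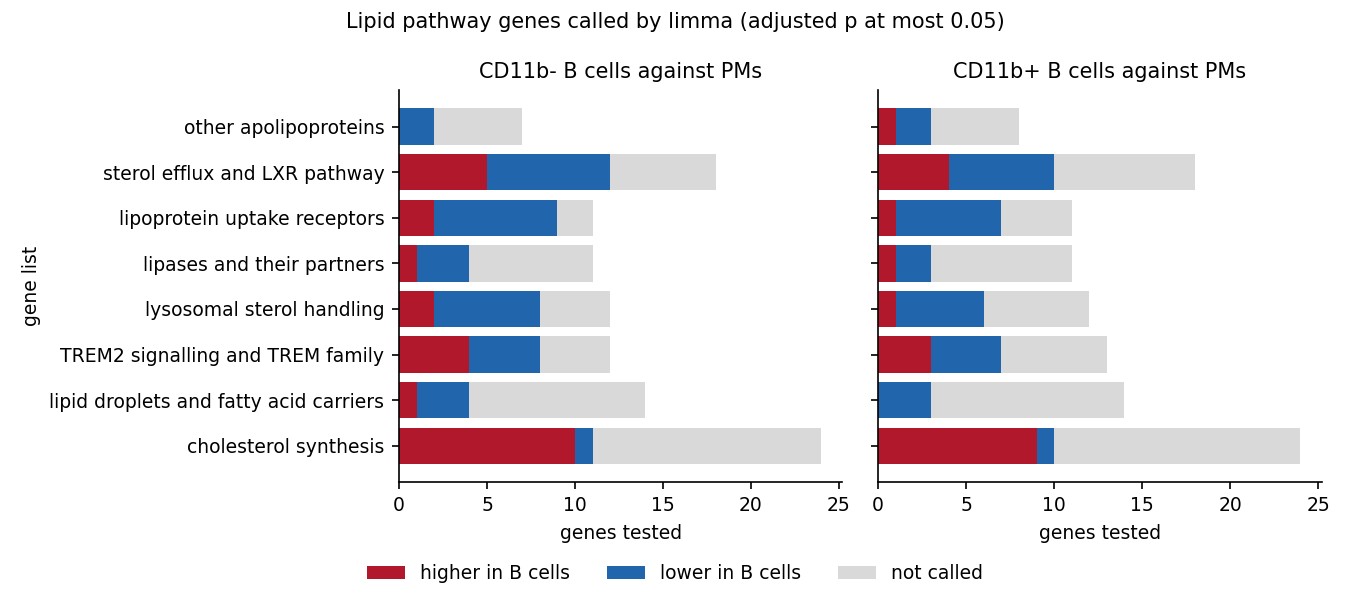
Number of genes tested in each of the 8 lipid lists (horizontal axis) and how many limma called higher (red) or lower (blue) in CD11b- B cells (left) and CD11b+ B cells (right) than in PMs; grey genes were not called. Lower calls are the larger number in both panels for every list except cholesterol synthesis and TREM2 signalling. The latter has 4 lower and 4 higher in CD11b- B cells. For cholesterol synthesis higher calls are the larger number, 10 and 9 of 24, and fewer with median-ratio scaling.

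For each of the 10 genes the 3 genes of most similar pattern were found by Pearson's r of log2(FPKM + 1) over the 9 libraries, among genes with a mean of at least 1 FPKM in some group. The libraries share their group, so r mainly follows the distance between PMs and B cells and is given as a description. Apoe was closest to Slpi, a protease inhibitor (r = 0.999), Cd14, the LPS co-receptor (0.998), and Cd5l (0.998). Apoc1 was closest to Rab11fip5, Efnb2 and Cmklr1, and Lpl to Krt80, Rin2 and Tmem273, while the genes closest to Trem2 included Septin8 and Lyve1, all with r above 0.998. Apoc2 was closest to Gdf15 (0.997), Map3k6 (0.993) and Gm48102 (0.992), Lipa to Agtrap (0.993), Tnfrsf21 (0.993) and Cd209a (0.992), and Plin2 to Crtap (0.996), Pgd (0.995) and Ern1 (0.995).

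For the other genes r was lower. Nr1h3 was closest to the inhibitory lectin Siglece (r = 0.974), the survival gene Bcl2a1b (0.972) and Adap2 (0.971). Abca1 was closest to Ppard, a lipid-activated nuclear receptor (0.985), Mettl7a1 (0.955) and Neurl3 (0.947). Abcg1 was closest to Zdhhc7 (0.947), Snx17 (0.943) and Snx33 (0.928).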

How the data were processed

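Per the labels and the study's methods, the authors made SMART-seq HT libraries, trimmed the paired reads, mapped them with STAR (2.7.2b) and counted reads on genes with featureCounts (1.6.1). The authors deposited FPKM values for 55322 genes. A second deposited table, a signal of counts divided by size factors for 11063 genes, gave the same reads and was used only for that check. The submitters' processing notes name GRCm38 and GRCm39, and positions in the tables differ from GRCm38, so positions are given from GENCODE M21 (GRCm38) by gene identifier. Strand settings of the counting are not given in the sources used here.

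Multiplied by exon length, 100% of the FPKM values came out as whole reads within 0.05 of a read. Each comparison was tested with limma 3.58.1 (R 4.3.3; trend, two-sided) on log2(FPKM + 1) over its 6 libraries, leaving out genes under 0.05 FPKM in the mean, and p-values were adjusted over all genes by Benjamini-Hochberg. The script was tested on simulated data. Single differences in means were tested by exact permutation. The alternatives were a pseudocount of 0.1, other filters, other scalings, blocks, edgeR 4.0.16 and DESeq2 1.42.0 on whole reads, and each library left out. For genes without a read, the floor was 3 reads a group. The genes named are the 10 members, in each pathway list those called between the B cell groups and the 2 highest in PMs and in B cells, the neighbours of Apoe and the 3 genes of most similar pattern. The members and lists were chosen with earlier results of these data known. A few genes counted in the lists are not reported here by name.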

Additional observations from a re-analysis of the deposited data

How the results depend on the processing

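Against PMs, the number of members called stayed within 1.5 times of 7, from 7 to 9 over the settings that keep all libraries, all lower in B cells. Between the B cell groups limma called 0 members and 0 pathway genes under every setting on FPKM, edgeR with its filter also called 0 and 0, edgeR without a filter called 2 members and 5 pathway genes, and DESeq2 called 1 member and 8 pathway genes. With each library left out in turn, limma called 0 between the B cell groups in every case, 6 to 8 and 7 to 8 members were called for CD11b+ and CD11b- B cells against PMs, and 37 to 50 and 41 to 62 pathway genes (with all libraries 49 and 58). Whether same-numbered libraries are pairs is not known. Same-numbered CD11b+ and CD11b- libraries had correlations of deviations from the group means of 0.287, -0.0170 and 0.209. For differently numbered libraries they ran from -0.298 to 0.142. The libraries numbered 1 and 3 in the titles also share a number in their descriptions. The main fit did not use the title numbers. With the number as a replicate block, limma called 0 members and 0 pathway genes between the B cell groups, 7 members against PMs in each comparison, and 42 and 51 pathway genes for CD11b+ and CD11b- B cells against PMs (without the block 49 and 58), Mvd not among them. The block by the description number (1 with 1 and 5 with 5) left replicate 2 of each B cell group in a block of its own. It called 0 of all 21778 genes tested, so its 0 members say nothing about the members.

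Of 476 fold changes of members under alternatives, 434 kept direction and call, 24 gained a call, 2 lost it and 16 turned sign, none of these in a called value. Abcg1 turned against PMs under median-ratio scaling, quantile normalization, edgeR with and without a filter and DESeq2 (CD11b+ -0.29, -0.26, -0.32, -0.26 and -0.32; CD11b- -0.091, -0.075, -0.086, -0.0023 and -0.11). The median log2 fold change of all genes tested, for CD11b+ and CD11b- B cells against PMs, was 0.06 and 0.06 under quantile normalization, 0.11 and 0.09 with edgeR, 1.48 and 0.67 with edgeR without a filter and 0.30 and 0.13 with DESeq2, the last 3 over other numbers of genes. Between the B cell groups Abca1 turned under quantile normalization (0.010) and, with single libraries left out, ran from -0.24 to 0.29, positive without CD11b- replicate 3 or CD11b+ replicate 1 or 2. Lipa ran from -0.13 to 0.12, positive without CD11b- replicate 1 or CD11b+ replicate 3. The cause was not tested. Depth limits Apoc1, Apoc2, Trem2 and Lpl in B cells, with 0 to 114 reads a library, and Nr1h3 in CD11b- B cells, with 8 to 20.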
